A study of Rattus with 8 samples.

Results

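The untreated culture of rat neural stem cells on day 5 is described here by the level of each gene, with no reference to how the treatments changed it. Its members are the 2 libraries whose labels say that nothing was added to the cells, out of 8 libraries in the series, and every one of the 18374 genes of the deposited table was taken. The other 6 libraries belong to 3 groups of 2, given a piezoelectric material, ultrasound or nanostickers, and none of their values is used below. All 4 groups are labelled as rat neural stem cells sampled on day 5. The labels give neither the strain, age and brain region the cells came from, nor the medium, the growth factors or the passage. They do not say whether replicates 1 and 2 grew in separate dishes, so the spread between them may be technical. With 1 group there is no contrast and no test, and the values are descriptions of these 2 libraries.

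Neural stem cells are the self-renewing precursors that give rise to neurons, astrocytes and oligodendrocytes. In culture they are usually held in division by fibroblast growth factor and epidermal growth factor, and they begin to make differentiated progeny when these are withdrawn. The same transcription factors and intermediate filaments that mark them are in part shared with astrocytes and with young glia, so a bulk culture is best read from whole groups of genes. A bulk library adds up all cells of the dish, so few cells with much of an RNA and many cells with little of it cannot be told apart.

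Levels are given in TPM, the authors' estimate of a gene's share of all transcripts, made by dividing its reads by transcript length and scaling every library to the same total, with replicate 1 before replicate 2. The libraries held 15244247 estimated counts in replicate 1 and 15295773 in replicate 2, and 16609 and 16613 genes were above 0. A level of at least 1 TPM in both libraries is called detected, and 12933 genes (70.4%) were. That 70.4% is the share to set beside every count of detected members below. Of the detected genes, 8796 reached 10 TPM in both and 1627 reached 100 TPM. The median of all genes was 9.55 TPM and that of the detected genes was 21.3 TPM, and these are the levels against which the groups below are set. At 0 counts in both libraries were 1128 genes (6.14%); a count of 0 allows up to 3 counts per library, which is 0.197 and 0.196 CPM (counts scaled to library size), and this limit covers counting error only. Counts that are not whole, found in at least 1 library for 2205 genes, come from an estimate that divides reads, and such genes are marked "shared reads" below because their level is uncertain.

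Apoe, the main lipid carrier of the brain and a product of astrocytes, was the most abundant gene, at 17568 and 17409 TPM. It also ranked first by counts, so its place does not depend on the division by length. Most of the next places went to small proteins, many of which bind metals. Mt2A was at 15105 and 14718 TPM (shared reads), Mt3 at 9934 and 8836 TPM and Mt1 at 6696 and 6877 TPM; all are metallothioneins, which hold zinc and copper, and Mt3 is the form of the nervous system. The heavy and light chains of ferritin, the iron store, were at 11477 and 10838 TPM (shared reads) for Fth1 and 8273 and 8052 TPM (shared reads) for Ftl1. Tmsb4x, which binds actin monomers, reached 10475 and 9163 TPM. Dbi, which carries acyl-CoA and is cut into peptides that act on the GABA-A receptor, was at 7619 and 6664 TPM.

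Structural and housekeeping genes followed. Vim, the intermediate filament protein of progenitors and astrocytes, was at 5404 and 5342 TPM and ranked 10 among all genes, just behind the ribosomal protein Rps29 at 6427 and 5566 TPM (shared reads). The tubulin Tuba1a stood at 5082 and 5169.5 TPM (shared reads) and its relative Tuba1b at 3596 and 3790.2 TPM (shared reads). Cst3, a secreted protease inhibitor of glia, was at 4915 and 4968 TPM, close to Fabp7, the fatty acid binding protein of radial glia, at 4984.5 and 4470.2 TPM. The glycolytic enzyme Gapdh was at 4396 and 4314 TPM, the actin Actb at 4152 and 3983 TPM, and the creatine kinase Ckb at 3138 and 3271 TPM. Mbp, the myelin basic protein of oligodendrocytes, ranked 23 among all genes at 3200.4 and 3417 TPM. Ribosomal proteins made up 9 of the 30 most abundant named genes and 39 of the 100 most abundant genes, and the ribosome genes of the table's annotation held 14.6% of all TPM in replicate 1 and 13.2% in replicate 2.

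The upper end of this order leans on short transcripts. The 10 most abundant genes held 9.9% and 9.35% of all TPM but 3.02% and 2.69% of the counts, and the 100 most abundant held 30.5% and 28.8% of TPM but 12.1% and 11.1% of the counts. The effective length is the length of transcript in which a fragment could start, as implied by the deposited counts and values per length. Its median was 327 bases in the 100 most abundant genes and 2233 bases in detected genes, and 30 of the 100 were under 200 bases. Mt2A had an effective length of 99 bases and ranked 70 by counts, Mt3 had 93 bases and ranked 156, and Rps29 had 50 bases and ranked 977. Between the list of 100 genes by TPM and that by counts, 39 genes were shared. Scd2, the desaturase that makes monounsaturated fatty acids in the brain, illustrates the reverse, being second by counts and rank 33 by level at 2392 and 2863 TPM (shared reads).

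**Figure D1:**
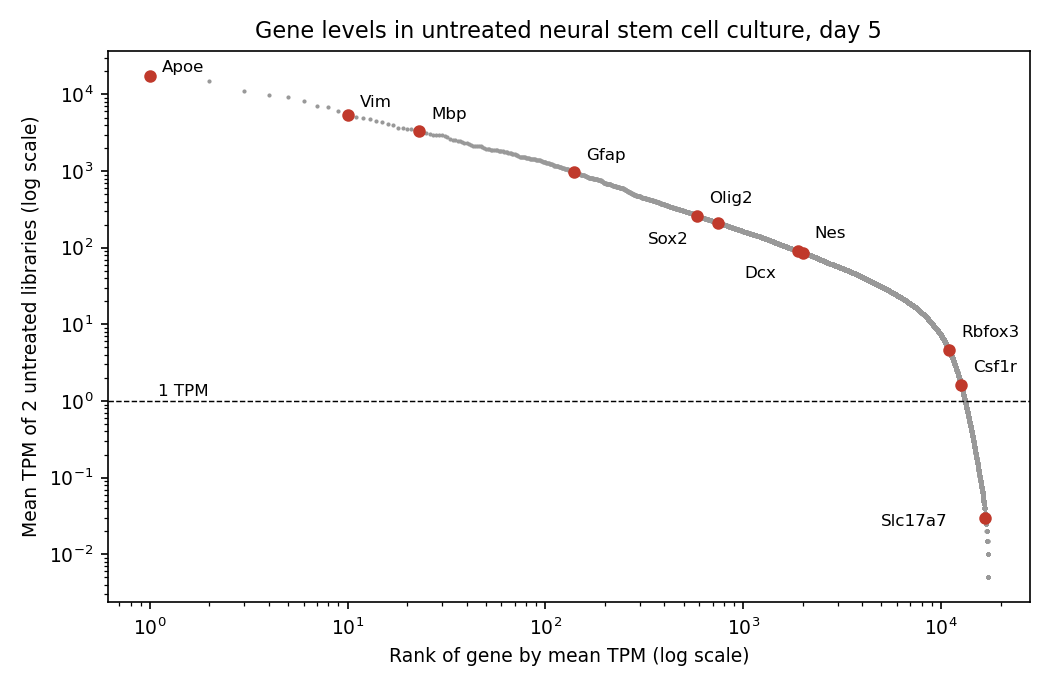
Mean TPM of the 2 untreated libraries (vertical, log scale) against the rank of the gene (horizontal, log scale), 1 grey point per gene with a mean above 0; red points are named genes and the dashed line is 1 TPM. Apoe leads, Mbp stands at rank 23 and Gfap at rank 139, Sox2, Nes and Dcx lie between ranks 749 and 1994, and the vesicular glutamate transporter Slc17a7 is near the bottom.

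Of the 5 genes used to check the label, Sox2, a transcription factor that keeps neural precursors undifferentiated, was at 201 and 219 TPM and rank 749 (gene ID 499593, chromosome 2, 121062089 to 121193562, plus strand). That span is far longer than the effective length of 2028 bases for Sox2, and reads of an overlapping gene cannot be told from its own without strand. Nes, the intermediate filament nestin of neural progenitors, was at 77.2 and 105 TPM and rank 1885 (ID 25491, chromosome 2, 187343109 to 187352972, plus strand). Both lie far above the median of detected genes, so the defining genes of the labelled cell type were present. The other markers are known from its progeny. Gfap, the filament of astrocytes and of some neural stem cells, was at 958 and 968 TPM and rank 139 (ID 24387, chromosome 10, 90990762 to 91000555, minus strand). Mbp, whose level is given above, is ID 24547, chromosome 18, 79326738 to 79437310, plus strand. Dcx, a microtubule protein of migrating young neurons, was at 78.2 and 94.6 TPM and rank 1994 (ID 84394, chromosome X, 115098675 to 115175515, plus strand), and so at about the level of Nes. Coordinates are those of the deposited table on the rat build Rnor 6.0.

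Genes of stem and progenitor cells were nearly all present. Detected were 24 of 25 of the list, with a median of 48.8 TPM, and together they took 1.24% and 1.2% of all TPM. Vim and Fabp7 held most of that share. Slc1a3, the glutamate carrier of radial glia and astrocytes, was at 426 and 471 TPM, and Ptprz1, a receptor phosphatase of progenitors, at 350.4 and 443 TPM. The surface protein Cd9 was at 256 and 229 TPM. Transcription factors of the list were lower. Lhx2 was at 72.6 and 71.5 TPM, Nr2e1 (Tlx), which maintains adult stem cells, at 43.9 and 53.7 TPM, Sox3 at 47.4 and 46.4 TPM and Sox9 at 32.4 and 36.7 TPM. Pax6, a factor of cortical radial glia, was at 12.7 and 15.1 TPM, below the median of detected genes. The surface markers Prom1 (CD133), at 1.17 and 1.11 TPM, and Fut4, whose enzyme makes the CD15 sugar, at 0.8 and 0.94 TPM, were the lowest of the list.

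Astrocyte genes had the highest median of the cell type lists, 257 TPM, and 21 of 22 were detected, holding 0.938% and 0.954% of TPM. Clu, a secreted chaperone, was at 1848 and 1768 TPM and the calcium-binding S100b at 1457 and 1433 TPM. Ndrg2 was at 946 and 961 TPM. Genes of the astrocyte's work followed: Aldoc, its aldolase, was at 745 and 703 TPM, Glul, which turns glutamate into glutamine, at 578 and 651 TPM, the water channel Aqp4 at 515 and 548 TPM, and the gap junction protein Gja1 at 302 and 321 TPM. Mlc1, a membrane protein of astrocyte endfeet, was at 754 and 804 TPM. Some defining genes of mature astrocytes were far lower. Aldh1l1 was at 16.2 and 17.3 TPM, and Slc1a2, the glutamate carrier that rises as astrocytes mature, was at 26.6 and 53.6 TPM, less than its relative Slc1a3 in both libraries. Gjb6, the second gap junction protein of mature astrocytes, was at 0.07 and 0.14 TPM and the only member of the 22 under 1 TPM.

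The oligodendrocyte lineage was present from its precursors to its myelin genes. Of the precursor list 17 of 17 measured members were detected, with a median of 79 TPM and 0.311% and 0.36% of TPM (0.643% of counts). The lineage factor Olig1 was at 776 and 818 TPM and Olig2 at 251 and 274 TPM. Sox10, which drives oligodendrocyte genes, was at 67.8 and 71.7 TPM, and Nkx2-2 at 59.3 and 66.9 TPM. Pdgfra, the receptor by which precursors are identified, was at 98.5 and 121 TPM (shared reads), whereas Cspg4 (NG2), a precursor proteoglycan, was at 6.72 and 9.61 TPM. Gpr17, a receptor of cells between precursor and oligodendrocyte, was at 187 and 343 TPM, and Tnr, a matrix protein, at 31.8 and 75.4 TPM; these were the members of the list that differed most between the libraries, both being higher in replicate 2. Bcas1, which marks oligodendrocytes that are starting to myelinate, was at 513 and 554 TPM.

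All members of the mature oligodendrocyte list, 22 of 22, were detected, with a median of 67.7 TPM and 0.682% and 0.73% of TPM. Mbp alone held nearly as much TPM as the rest of the list together. Cnp, an enzyme of myelin cytoplasm, was at 757 and 774 TPM. Mobp was at 238 and 258 TPM and Mag, an adhesion protein of the innermost wrap, at 148 and 173 TPM. The tight junction protein Cldn11 was at 138 and 137 TPM and Ugt8, which makes the glycolipid galactosylceramide, at 105 and 111 TPM. Myrf, the transcription factor that switches on myelin genes, was at 63.6 and 78.96 TPM. Genes of late oligodendrocytes were at lower levels. Mog was at 19.8 and 17.4 TPM, Mal at 20.4 and 21.4 TPM and Opalin at 2.87 and 2.79 TPM, the lowest of the list.

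Young neuron genes were detected in 24 of 25 cases, with a median of 58.3 TPM and 0.385% and 0.401% of TPM. The tubulin Tubb2b, which progenitors also use, was at 1434 and 1527 TPM (shared reads), and the tubulin-binding Stmn1 at 657 and 619.6 TPM. More specific to neurons, Tubb3 was at 229 and 213 TPM, Stmn2 at 105 and 94.6 TPM and the RNA-binding protein Elavl3 at 48.2 and 56.4 TPM. A block of factors of inhibitory neurons from the ventral forebrain was present: Dlx1 was at 78.96 and 78.1 TPM, Dlx2 at 68.7 and 78.3 TPM, Dlx5 at 25.9 and 24.9 TPM and Sp9 at 23.7 and 24.1 TPM. The enzymes that make GABA were at 36.97 and 35.4 TPM for Gad1 and 13.6 and 16.9 TPM for Gad2. Neurod1, a factor of excitatory neurons, was at 0.31 and 0.13 TPM and was the only member not detected.

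Mature neuron genes were low. Detected were 19 of 24, with a median of 5.63 TPM, and the list took 0.0813% and 0.0864% of TPM but 0.174% of the counts. Map2, the dendrite protein, was at 199 and 203 TPM, and the calcium-binding proteins Calb1 at 172 and 177 TPM and Calb2 at 74.4 and 79.95 TPM; the neuropeptide Npy stood at 121 and 125 TPM (shared reads). Synaptic vesicle genes were lower, with Syn1 at 56.8 and 62 TPM, Syp at 26.1 and 28.9 TPM and Syt1 at 11.65 and 14.69 TPM. Snap25, of the membrane with which vesicles fuse, was at 17.7 and 14.5 TPM. Slc32a1, which loads GABA into vesicles, was at 17.2 and 19.6 TPM. The carriers that load glutamate were at or near 0, Slc17a6 at 0.05 and 0.06 TPM and Slc17a7 at 0 and 0.06 TPM. Rbfox3 (NeuN), the nuclear marker of mature neurons, was at 4.46 and 4.81 TPM, and the heavy neurofilament Nefh at 0.21 and 0.31 TPM. Of the genes of other transmitters 1 of 9 measured members were detected, Slc18a2 at 4.87 and 3.52 TPM; the acetylcholine enzyme Chat was at 0 and 0 TPM.

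Genes that mark cells from outside the neural lineage were mostly at low levels. No gene of the endothelial list was detected (0 of 12 measured members), with Cldn5 at 0 and 0 TPM, Pecam1 at 0.05 and 0.27 TPM and Cdh5 at 0.04 and 0 TPM. Microglial genes were detected for 9 of 16 members. The complement gene C1qc was at 12.3 and 10.7 TPM and its partner C1qb at 10.1 and 7.91 TPM. Csf1r, the receptor on which microglia depend, was at 1.81 and 1.46 TPM, Cx3cr1 at 0.55 and 0.98 TPM, P2ry12 at 0.8 and 0.74 TPM and Tmem119 at 0.66 and 0.6 TPM. Together the list took 0.0137% and 0.0125% of TPM. Of pericyte and smooth muscle genes 6 of 11 were detected. Tagln, an actin-binding protein, was at 454 and 456 TPM, Acta2 at 28.9 and 33.6 TPM and Cnn1 at 27 and 28.5 TPM. Pdgfrb, which is also in the fibroblast list, was at 26.3 and 31.04 TPM, and Notch3 at 13.2 and 17.8 TPM. The pericyte markers Rgs5 and Higd1b were at 0 counts in both libraries, and Kcnj8, Anpep and Abcc9 were under 1 TPM in both. Fibroblast genes were detected for 6 of 13, the collagen Col1a1 at 19.7 and 24.02 TPM and Dcn at 0.43 and 1.23 TPM.

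Neighbours of the stem cell niche were also looked for. Foxj1, the factor that turns on motile cilia in ependymal cells, was at 63.2 and 65.8 TPM, and 8 of 10 measured ependymal genes were detected, most under 20 TPM, such as Tekt1 at 16.8 and 15.3 TPM and Rsph1 at 12.9 and 9.09 TPM. Choroid plexus genes reached 5 of 9, led by Enpp2, which oligodendrocytes share, at 62.4 and 65.8 TPM; Ttr, the defining product of choroid plexus, was at 9.74 and 7.77 TPM. All 10 of 10 genes of the Schwann cell list were detected, but with a median of 2.43 TPM. Pmp22, a myelin protein also made elsewhere, was at 256 and 253 TPM, and Egr2, the factor that drives peripheral myelin genes, at 2.38 and 2.28 TPM. The pluripotency list had 1 of 9 measured members detected, Klf4 at 2.69 and 3.42 TPM, while Lin28a was at 0.03 and 0.03 TPM. Among genes of other organs, 3 of 13 were detected, none above 10 TPM, and the epithelial genes Cdh1 and Epcam were at 0 counts.

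**Figure D2:**
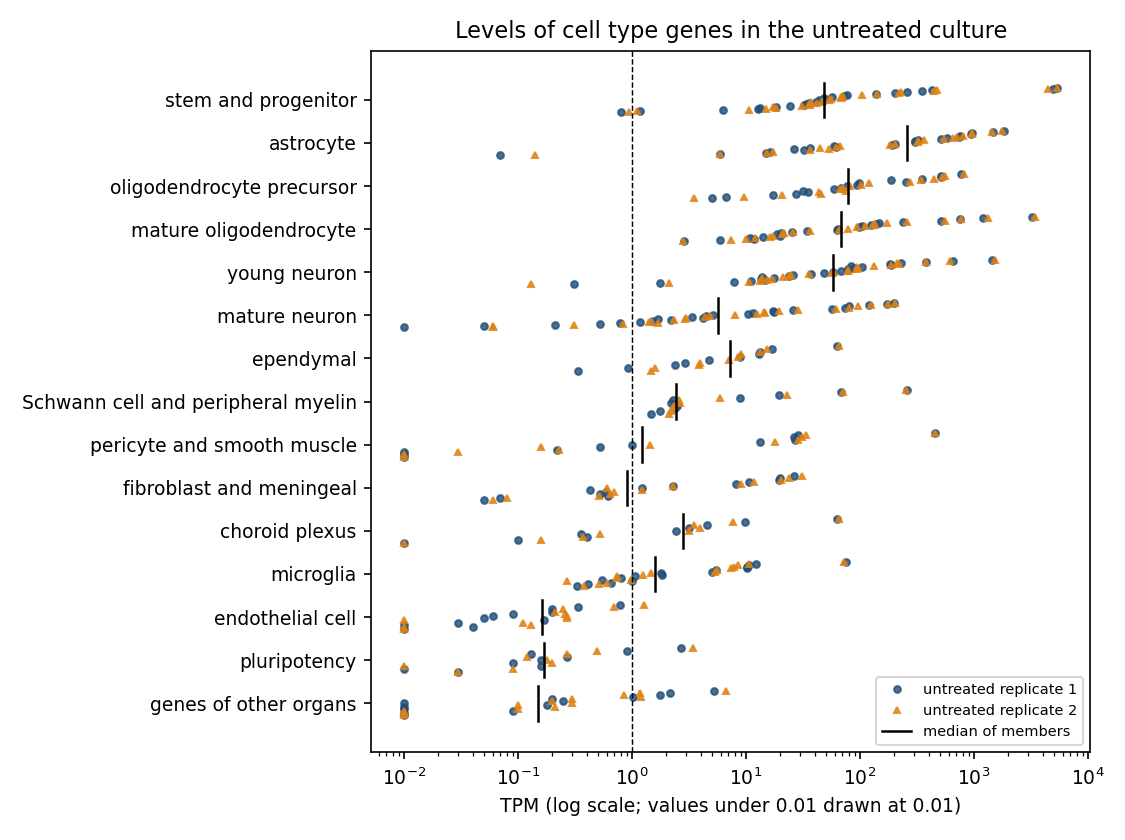
TPM (horizontal, log scale) of each member of 15 cell type lists (rows) in replicate 1 (circles) and replicate 2 (triangles), with the median of the members as a black bar, a dashed line at 1 TPM, and values under 0.01 drawn at 0.01. The astrocyte list has the highest median at 257 TPM, the 2 oligodendrocyte lists and the stem and young neuron lists have medians between 48.8 and 79.0 TPM, and every endothelial gene is under 1 TPM in at least 1 library.

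Genes that drive division and genes that restrain it were both present. All 27 of 27 cell cycle genes were detected, at a median of 23.3 TPM. Cdk4, the G1 kinase, was at 481 and 424 TPM, and its partners were at 88.2 and 130.1 TPM for Ccnd2, 65.4 and 66.7 TPM for Ccnd3 and 61.7 and 68.9 TPM for Ccnd1. Pcna, the clamp of the replication fork, was at 160.1 and 157 TPM, and Mcm7, a subunit of the replicative helicase, at 61.2 and 62.8 TPM. Genes of mitosis followed, with Cdk1 at 55.1 and 57.1 TPM, Aurkb at 55.8 and 55.97 TPM and Top2a at 28.7 and 31.2 TPM. Mki67 was at 14.3 and 19.4 TPM (shared reads). All 12 of 12 measured inhibitors were detected too, with a higher median of 44.7 TPM. Btg1, an antiproliferative gene, was at 173 and 172 TPM, Cdkn1a (p21) at 158 and 164 TPM, Cdkn1b (p27), which holds precursors out of the cycle, at 103 and 112 TPM, and Cdkn2a, which rises in cultured cells with age, at 46.04 and 39.9 TPM.

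In the fibroblast growth factor system the levels of the main receptors were above those of the secreted ligands listed. Fgf2, the ligand added to most neural stem cell media, was made at 5.62 and 8.45 TPM and Fgf1 at 5.43 and 6.38 TPM; Fgf8 was at 0 counts. The larger values of Fgf12, at 43.2 and 45.5 TPM, belong to an intracellular relative that is not secreted. Fgfr1 was at 148 and 164 TPM, Fgfr2 at 73.3 and 79.6 TPM and Fgfr3 at 59.3 and 67.1 TPM, while Fgfr4 was at 1.23 and 0.53 TPM. Of the genes that the pathway induces, Spry2, an inhibitor, was at 42.1 and 40.2 TPM, Etv5 at 24.2 and 28.4 TPM and Dusp6, a phosphatase of ERK, at 8.49 and 9.06 TPM. In the epidermal growth factor system Tgfa was at 27.8 and 35.1 TPM and Hbegf at 17.4 and 16.9 TPM, and Egf itself at 0.21 and 0.57 TPM (shared reads). The receptor Egfr was at 13.2 and 18.2 TPM and its relative Erbb4 at 7.93 and 19.6 TPM, so that Egfr led the family in replicate 1 and Erbb4 in replicate 2. Errfi1, a feedback inhibitor of the receptor, was at 23.1 and 22.9 TPM.

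In the platelet-derived growth factor system the ligand Pdgfa was at 27.2 and 26.3 TPM and Pdgfc at 37.3 and 41.05 TPM, against Pdgfb at 1.94 and 2.59 TPM. Pdgfra was the higher receptor, as given above, and Pdgfrb was at 26.3 and 31.04 TPM. Gas6, a ligand of the TAM receptors that clear dying cells, was at 361 and 393 TPM, and its receptors were at 78.2 and 90.5 TPM for Tyro3, 26.9 and 29.01 TPM for Axl and 5.54 and 5.31 TPM for Mertk. Csf1, on which microglia depend, was made at 64.1 and 74.1 TPM. Vegfa was at 39.8 and 36.9 TPM, while its endothelial receptors Kdr, at 0.34 and 0.69 TPM, and Flt1, at 0.03 and 0.11 TPM, were not detected.

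Among neurotrophic factors, Ptn, a heparin-binding growth factor, was at 552 and 537 TPM and its receptor Ptprz1 was given above; Mdk, its relative, was at 124 and 103 TPM. Ntrk2, the receptor of brain-derived neurotrophic factor, was at 242 and 289 TPM and held 93.5% of the TPM of the 3 Trk receptors. Its ligand Bdnf was at 0.31 and 0.08 TPM, Ntf3 at 0 and 0 TPM and Gdnf at 0.03 and 0.03 TPM, none of them detected. Cntf, a cytokine that promotes astrocyte fate, was at 92.3 and 86.8 TPM, with its receptor chains Cntfr at 91.3 and 98.96 TPM, Il6st at 60.8 and 74.99 TPM and Lifr at 5.57 and 12.4 TPM. The list took 0.166% and 0.181% of TPM and 0.445% of counts. Of the insulin-like growth factors, Igf1 was at 0.61 and 0.75 TPM and Igf2 at 0.62 and 0.51 TPM. Their binding proteins were much higher, Igfbp7 at 242 and 241 TPM, Igfbp2 at 186 and 191 TPM and Igfbp5 at 162 and 278 TPM, the last being the leading one of the family in replicate 2 only. The receptor Igf1r was at 3.81 and 4.19 TPM and Insr at 4.63 and 7.92 TPM.

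Notch signalling, in which ligands on 1 cell activate receptors on its neighbour and keep it undifferentiated, had genes of every step present, with 21 of 23 detected. The ligand Dll1, at 26.4 and 27.8 TPM, exceeded the other activating ligands listed. Jag2 was at 4.56 and 5.04 TPM, Jag1 at 1.43 and 1.32 TPM and Dll4 at 0.27 and 0.16 TPM. Dll3, a relative not counted here as an activating ligand, was at 36.6 and 38.4 TPM. The sugar transferase Lfng, which tunes the receptor, was the highest member at 107 and 117 TPM. Notch1 was at 47.98 and 68.5 TPM, Notch2 at 25.1 and 32.2 TPM and Notch3 at 13.2 and 17.8 TPM. The nuclear partner Rbpj was at 41.6 and 50.1 TPM. Targets were at 54.4 and 60.1 TPM for Hey1, 41.2 and 36.9 TPM for Hes1 and 33.8 and 36.05 TPM for Hes5. Hes6, which opposes Hes1, was at 84.7 and 86.3 TPM.

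Bone morphogenetic protein signalling favours astrocyte over neuron and oligodendrocyte fate. Bmp6 was at 129 and 147 TPM and Bmp4 at 80.98 and 76.6 TPM; Bmp2 was at 1 and 1.58 TPM and Bmp5 at 0 and 0 TPM. Nog, a secreted inhibitor of these ligands, was at 21.02 and 23.5 TPM (shared reads). Bmpr1a was at 118 and 154 TPM, Bmpr2 at 26.4 and 31.5 TPM and Bmpr1b at 11.6 and 17.9 TPM. The pathway induces the Id genes, which block proneural factors, and 3 of them led the list by mean level. These were at 1007 and 963 TPM for Id3, 460.3 and 493 TPM for Id2 and 139 and 141 TPM for Id1, while Id4 was at 81.4 and 82.7 TPM. Smad7 and Smad6, feedback inhibitors in the same list, were low at 5.28 and 4.91 TPM and at 1.31 and 2.35 TPM. Tgfb2 was the highest transforming growth factor at 60.6 and 70.1 TPM. Of the whole list 31 of 35 were detected.

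Wnt genes were detected for 25 of 34 measured members, a share close to the 70.4% of all genes. The ligands Wnt7a, at 30.4 and 31.5 TPM, and Wnt7b, at 27.8 and 31.4 TPM, were the highest of those listed, ahead of Wnt5a at 15.03 and 15.1 TPM. Fzd2 was the leading Frizzled receptor at 112 and 122 TPM, and the co-receptor Lrp6 was at 11.2 and 17.1 TPM. Ctnnb1, the effector beta-catenin that also sits at cell junctions, was at 533 and 605 TPM. The target Axin2 was at 7.09 and 8.53 TPM, Lgr5 at 9.14 and 9.96 TPM and Lef1 at 0.72 and 1.7 TPM. The R-spondin ligands Rspo1, Rspo2 and Rspo3 were at 0.07 TPM or less. In the hedgehog pathway, whose ligand patterns the ventral neural tube, Shh was at 0.07 and 0.14 TPM and Ihh at 0.29 and 0.1 TPM. The receptor Ptch1 was at 10.9 and 17.6 TPM and the transducer Smo at 41.7 and 48.9 TPM. Gli1, the standard readout of the pathway, was at 0.03 and 0.03 TPM, Hhip, another target, at 1.81 and 2.66 TPM, and Gli3, which acts mainly as a repressor, at 6.35 and 10.6 TPM.

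**Figure D3:**
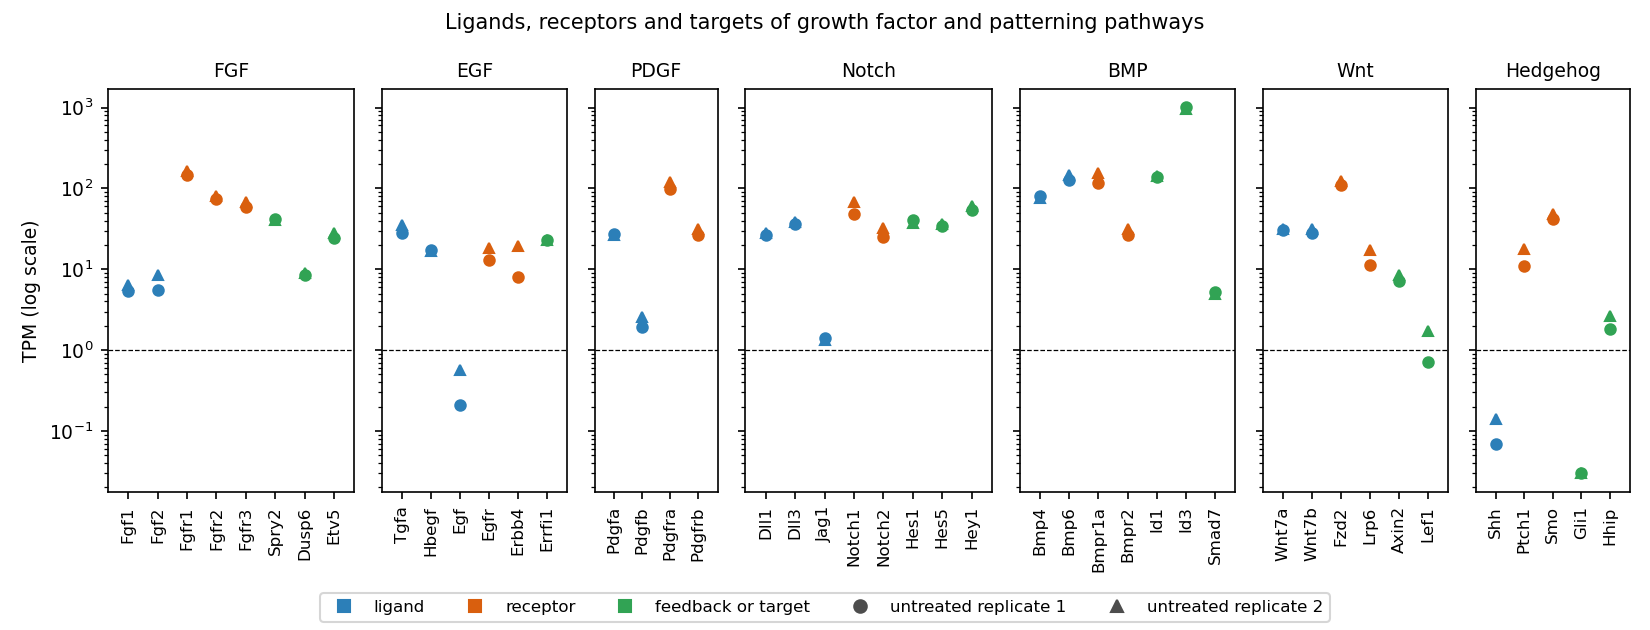
TPM (vertical, log scale) of ligands (blue), receptors (orange) and feedback genes or targets (green) of 7 signalling pathways in replicate 1 (circles) and replicate 2 (triangles), with a dashed line at 1 TPM. The FGF, PDGF and BMP receptors plotted lie between 26.3 and 164 TPM, Id3 stands highest at 1007 and 963 TPM, and Egf, Shh and Gli1 lie under 1 TPM.

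Among receptors for transmitters and other small ligands, the G protein-coupled list was detected for 42 of 61 members. Counted among them is Htr3a, at 2.31 and 2.85 TPM, whose product is a ligand-gated channel. The wider annotated class of G protein-coupled receptors was detected for 114 of 403 genes (28.3%), below the 70.4% of all genes. Ednrb, the endothelin receptor of astrocytes and progenitors, was the highest at 609 and 721 TPM. Adgrg1 (GPR56), an adhesion receptor of progenitors, was at 364 and 405 TPM, Gpr37l1, a glial receptor, at 332 and 327 TPM, and Gabbr1, a subunit of the GABA-B receptor, at 234 and 253 TPM. Gabbr2, the subunit it needs at the membrane, was far lower at 8.48 and 8.6 TPM. Receptors of the lipid sphingosine-1-phosphate were at 174 and 195 TPM for S1pr3 and 122 and 129.6 TPM for S1pr1. Adcyap1r1, the receptor of the peptide PACAP, was at 140.1 and 174 TPM, and the chemokine receptor Cxcr4 at 85.1 and 87.2 TPM. Receptors of dopamine, serotonin and opioids were low, with Drd1 at 3.32 and 3.49 TPM, Htr2a at 0.45 and 0.24 TPM and Oprm1 at 0.19 and 0.45 TPM.

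Ligand-gated channels were detected for 28 of 36 members, a share somewhat above the 70.4% of all genes, at a median of 6.71 TPM. The AMPA receptor subunit Gria2, which makes the channel impermeable to calcium, was at 80.6 and 95.3 TPM, ahead of Gria4 at 22.4 and 28.5 TPM, Gria3 at 18.04 and 20 TPM and Gria1 at 6.58 and 9.02 TPM. The kainate subunit Grik5 was at 72.2 and 77.7 TPM and the glycine receptor subunit Glrb at 70.4 and 92.7 TPM. Of the GABA-A subunits, Gabrg1 was at 47.1 and 53.6 TPM and Gabra2 at 25.4 and 31.1 TPM. The obligatory NMDA subunit Grin1 was at 10.5 and 12.5 TPM, and the adult subunit Grin2a at 0.07 and 0.21 TPM. The purine-gated channel P2rx4 was at 31.01 and 31.3 TPM.

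A glial form led among the beta subunits of the sodium pump. Atp1b2, the sodium pump subunit of astrocytes, was at 814 and 876 TPM, against Atp1b1 at 187 and 193 TPM (shared reads) and Atp1b3 at 185 and 185 TPM. The potassium channel Kcnj10 (Kir4.1), which clears potassium in glia, was at 82.3 and 121 TPM. Of the amino acid carrier genes, Slc3a2, the chain shared by several of them, was at 617 and 598 TPM, Slc7a5 at 203 and 220 TPM, Slc38a3 at 195 and 201 TPM, Slc7a11 at 37.2 and 49 TPM and Slc1a5 at 0.97 and 1.4 TPM. Cacng4, an auxiliary subunit of AMPA receptors, was at 204 and 287 TPM. Slc12a2, which loads chloride into young neurons and glia, was at 37.4 and 43.2 TPM, and Slc12a5, which removes it in mature neurons, at 2.64 and 2.55 TPM. Voltage-gated calcium channels were low, Cacna1h at 9.04 and 11.6 TPM and Cacna1c at 4.87 and 5.85 TPM. Of the channels known to respond to mechanical stimuli or swelling, Tmem63b, an osmosensitive channel, was at 84.8 and 94.7 TPM, Trpm7 at 16.8 and 22.03 TPM, Piezo1 at 1.23 and 1.78 TPM, Trpv4 at 0.23 and 0.28 TPM and Piezo2 at 0.06 and 0.02 TPM.

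Guidance and adhesion genes were widely present, 47 of 49 being detected. Cdh2 (N-cadherin), which joins neural progenitors, was at 225 and 247 TPM, and Itgb1, the common integrin chain, at 183 and 196 TPM (shared reads). Dag1, the laminin-binding dystroglycan, was at 171 and 196 TPM. Contacts between glia and axons were represented by Cntn1 at 108 and 139 TPM and Nfasc at 99.8 and 139.8 TPM. Plxnb2 was the highest plexin at 104 and 130 TPM and Ntn1, a guidance ligand, was at 32.5 and 60.6 TPM. Among secreted and matrix genes, which took 3.94% and 3.89% of TPM and 2.49% of counts, the matrix protein Sparc was at 1896 and 2006 TPM and Metrn, a secreted factor of glial differentiation, at 605 and 631 TPM. Bcan was the highest proteoglycan of the lectican family at 489 and 579 TPM (shared reads), followed by Ncan at 194 and 277 TPM and Vcan at 76.4 and 81.6 TPM; Acan, which is found around mature neurons, was at 0.33 and 0.53 TPM.

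Annotated transcription factors numbered 1171, of which 851 (72.7%) were detected, a share close to the 70.4% of all genes; together they held 2.71% and 2.93% of TPM. The highest were Ybx1, a cold shock protein, at 1005 and 1012 TPM, and Id3. After Olig1 came Nme2, a nucleotide kinase that also binds DNA, at 689 and 639.7 TPM. Behind Id2 followed Cnbp at 427 and 408 TPM, Tsc22d1 at 391 and 369 TPM, the stress factor Atf4 at 360.2 and 357 TPM, the coactivator Sub1 at 362 and 351 TPM and Hmg1l1 at 349 and 338 TPM (shared reads). Below Olig2, Sox2 and Mbd3, the last of the 15 highest was Litaf at 175 and 185 TPM. Thra, the thyroid hormone receptor through which the hormone times oligodendrocyte formation, was the highest nuclear receptor at 246 and 269.9 TPM (shared reads). Nr2f1, a nuclear receptor that patterns the cortex, was at 116 and 109 TPM. Families differed in how many members were used: 324 of 378 zinc finger factors of the C2H2 class were detected, against 39 of 122 homeobox factors, 13 of 29 forkhead factors and 3 of 14 T-box factors. Of the list of neural and glial factors 99 of 103 measured members were detected at a median of 44.9 TPM. Sox8 was at 138 and 154 TPM, the hypoxia factor Epas1 at 123 and 157 TPM, Stat3, which drives Gfap, at 129 and 147 TPM, and Nfix, a factor of gliogenesis, at 91.4 and 133 TPM. Hmgn1, at 69.99 and 0 TPM (shared reads), is listed at or near 0 in 1 library only, and its level cannot be read.

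Of the factors that pattern the neural tube, those of the ventral forebrain were among the higher ones. Meis2, a homeobox factor of the striatal primordium and other regions, was at 113 and 112 TPM. With the Dlx genes given above, Gsx1 at 23.6 and 32.9 TPM, Gsx2 at 7.5 and 4.44 TPM, Six3 at 27.1 and 29.2 TPM and Pbx3 at 76.4 and 73.98 TPM (shared reads) belong to the ventral and rostral forebrain. Genes of the dorsal cortex were lower, Emx2 at 10.2 and 11.5 TPM, Emx1 at 0.42 and 0.3 TPM, Eomes at 0.05 and 0.03 TPM and Tbr1 at 0.22 and 0.12 TPM. Nkx2-1, of the medial ganglionic eminence and hypothalamus, was at 3.58 and 4.15 TPM, and Lhx6, which follows it in cortical interneurons, at 0.03 and 0.06 TPM. En1, a midbrain and hindbrain gene, was at 12.2 and 13.4 TPM. The Hox genes measured, which mark hindbrain and spinal cord, were at 0.26 TPM or less. Detected in all were 27 of 53 measured regional factors, a lower share than the 70.4% of all genes, and 8 were at 0 counts in both libraries, among them Isl1, Pax2 and Lmx1b.

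Chromatin and RNA regulators were near complete. Of the chromatin list 46 of 47 were detected. Sirt2, a deacetylase abundant in oligodendrocytes, was at 1118 and 1121 TPM, far above Mbd3, at 205 and 209.7 TPM, and Rbbp7, at 187 and 182 TPM, both subunits of the NuRD complex. Dnmt1, which copies DNA methylation at division, was at 26.9 and 33.2 TPM, and Dnmt3a, which sets it, at 14.8 and 16.1 TPM; Dnmt3b, the form of early embryos, was at 1.07 and 0.84 TPM. Ezh2, which trimethylates histone H3 in dividing progenitors, was at 25.9 and 28.4 TPM. Among 37 of 40 RNA-binding genes detected, Hnrnpa2b1 was at 632 and 699 TPM and Qk, which glia use to splice and carry myelin RNA, at 137 and 215 TPM (shared reads). Ptbp1, the splicing repressor of non-neuronal cells, was at 163 and 173 TPM, and Ptbp2, which replaces it in young neurons, at 48.5 and 59.8 TPM. Msi1, a marker of neural stem cells, was at 48.4 and 55.3 TPM.

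**Figure D4:**
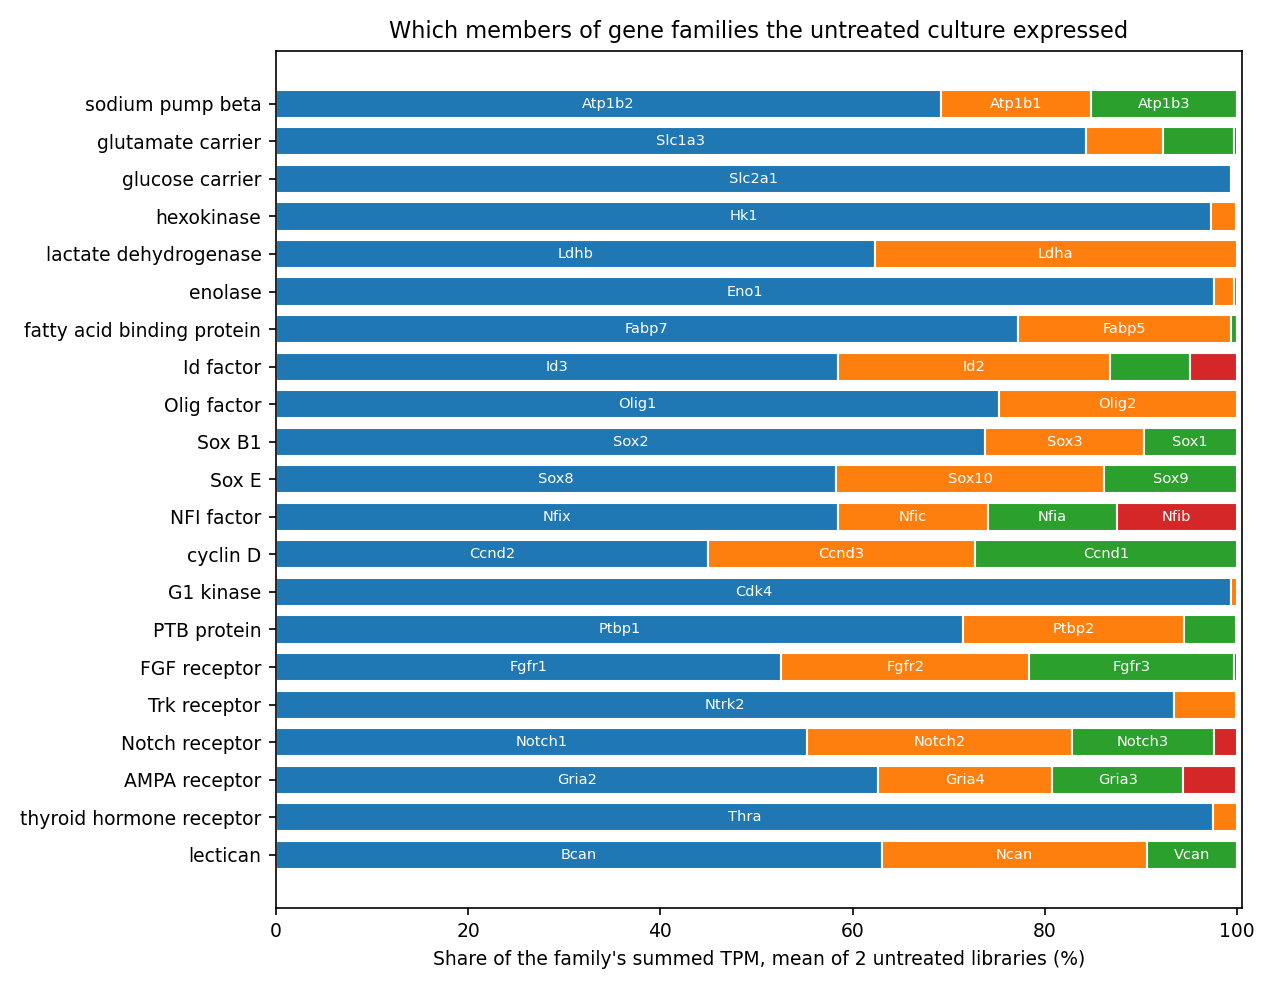
Share of each family's summed TPM held by its members (horizontal, %, mean of the 2 untreated libraries), for 21 families of related genes; each colour is a member, the largest at the left, and members above 9% are named. The glial or progenitor member leads in the sodium pump beta (Atp1b2), glutamate carrier (Slc1a3) and fatty acid binding protein (Fabp7) families.

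Related genes were used unequally. In 41 of 54 families of paralogs 1 member held over 50% of the summed TPM, and in 9 families over 90%. A pair of paralogs, such as the ferritins, Olig1 and Olig2, or Msi1 and Msi2, must have 1 member at or above 50%. Such pairs are among the 41, so that count depends in part on family size. The same member led in both libraries in 52 of the 54, the exceptions being the ErbB receptors and the insulin-like growth factor binding proteins. Hk1 is the main hexokinase of brain, and here Hk1 held 97.3% and 97.3% of the hexokinase family. Slc2a1 held 99.3% and 99.5% of the glucose carrier family, and Cdk4 held 99.6% and 99.1% of the G1 kinase family. The former was counted over Slc2a1 to Slc2a4 only and the latter over Cdk4 and Cdk6 only. In the lactate dehydrogenases the B subunit, known from tissues that use lactate, was ahead, since Ldhb held 61.4% and 63.2% of the lactate dehydrogenase family. Nfix held 59.1% and 57.9% of the NFI factor family. Fabp7 held 77% and 77.4% of the fatty acid binding protein family. Thra held 97.6% and 97.4% of the thyroid hormone receptor family. Ccnd2 held 41% and 48.9% of the cyclin D family, so that no cyclin D held most of its family.

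Genes of energy metabolism were nearly all detected. All 22 of 22 glycolytic genes were detected at a median of 202 TPM; after Gapdh came Eno1 at 1629 and 1628 TPM and Aldoa at 1303 and 1310 TPM. Hk2, the hexokinase induced in tumours and by hypoxia, was at 3.93 and 4.56 TPM. Nuclear subunits of the respiratory chain had a median of 374 TPM and took 1.78% and 1.65% of TPM but 0.606% of counts. Cox8a was at 2400.2 and 2202 TPM and Atp5f1b, the catalytic subunit of ATP synthase, at 1072 and 1052 TPM. Atp5pb, another subunit that every respiring cell needs, is listed at 0 and 0 TPM, which can be a failed estimate. All 21 of 21 genes of fatty acid and ketone use were detected. Fabp5 was at 1452 and 1268 TPM, Acsbg1, an acyl-CoA synthetase of brain, at 302 and 323 TPM, Hadha, of mitochondrial oxidation, at 192 and 219.7 TPM, and Oxct1, which lets cells use ketone bodies, at 100 and 112 TPM.

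Lipid and cholesterol synthesis, which supplies myelin, had a median of 127 TPM. It took 0.669% and 0.763% of TPM and 1.68% of counts. Hmgcs1, an early enzyme of cholesterol synthesis, was at 424 and 474 TPM. The desaturases Fads2, at 369.9 and 465 TPM, and Fads1, at 255 and 267 TPM, make polyunsaturated fatty acids. Fasn, which makes palmitate, was at 131 and 185 TPM, and Fa2h, which makes the hydroxylated lipids of myelin, at 34.2 and 36.7 TPM. Elovl6, at 0 and 6.46 TPM (shared reads), is listed at 0 in replicate 1 although it had shared reads in replicate 2. The output carrier Abca1 was at 67.8 and 90.9 TPM.

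Stress and redox genes took 6.84% and 6.58% of TPM and 2.08% of counts, largely through the metallothioneins and ferritins. Gstm1 was at 2112 and 2126 TPM and Gstp1 at 2038 and 1904 TPM, both detoxifying enzymes. Prdx6, a peroxidase that astrocytes make, was at 1431 and 1481 TPM. Nqo1, at 632 and 638 TPM, and Hmox1, at 313 and 306 TPM, are targets of the oxidative stress factor Nfe2l2, itself at 81.4 and 86.02 TPM. Of the chaperones, Hspa8, which is constitutive, was at 1440.4 and 1384 TPM (shared reads), and Hspa1b, which heat induces, at 0.87 and 1.25 TPM (shared reads). Immune genes had a median of 14.5 TPM. B2m, the light chain of class I molecules, was at 711 and 698 TPM. Interferon-induced Isg15 was at 20.96 and 22.98 TPM, C3, a complement gene of reactive astrocytes, at 18.5 and 24.1 TPM, and Lcn2, another reactive gene, at 23.9 and 18.6 TPM. The cytokines Il6, at 0 and 0.14 TPM, Il1b, at 0.28 and 0.2 TPM, and Tnf, at 0.07 and 0.07 TPM, were not detected.

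The libraries agreed closely in level. Across the 12933 detected genes, which are not independent replicates, Spearman's rho between the levels was 0.991 and Pearson's r of the log2 levels was 0.9902; these are descriptions. The median size of the log2 ratio of replicate 1 over replicate 2 was 0.15 and its 95th percentile 0.638. Over 2-fold apart were 190 genes (1.47%), and 8 of the 3412 genes with a mean of at least 50 TPM, of which 4 have placeholder symbols. The 100 most abundant genes of either library had 97 in common. Part of the difference followed transcript length. The median log2 ratio was 0.05 in the shortest of 5 equal groups of genes and -0.26 in the longest, with a rho of -0.47 between ratio and effective length, and 68.6% of genes were higher in replicate 2. Values of long genes such as Notch1, Nes or Tnr therefore stand beside a general difference of that size between the libraries, and its part in any single gene was not tested.

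Genes with placeholder symbols aside, the 10 genes with a mean of at least 50 TPM that differed most included 7 higher in replicate 2. Tnr differed most among them, as given above. Lrrc58 was at 52 and 109.8 TPM, Psmd14, a deubiquitinase of the proteasome, at 41.8 and 83.7 TPM, and the kinesins Kif1b and Kif1a, which carry cargo along axons, at 77.5 and 149.8 TPM and 118 and 206 TPM. Higher in replicate 1 were Nfs1, which supplies sulfur for iron-sulfur clusters, at 72.7 and 35.2 TPM (shared reads), the protocadherin Pcdhgc5, at 81.8 and 41.6 TPM (shared reads), and Rpl9, at 620.4 and 330 TPM (shared reads). Gpr17 and Igfbp5, with values given above, complete the 10.

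**Figure D5:**
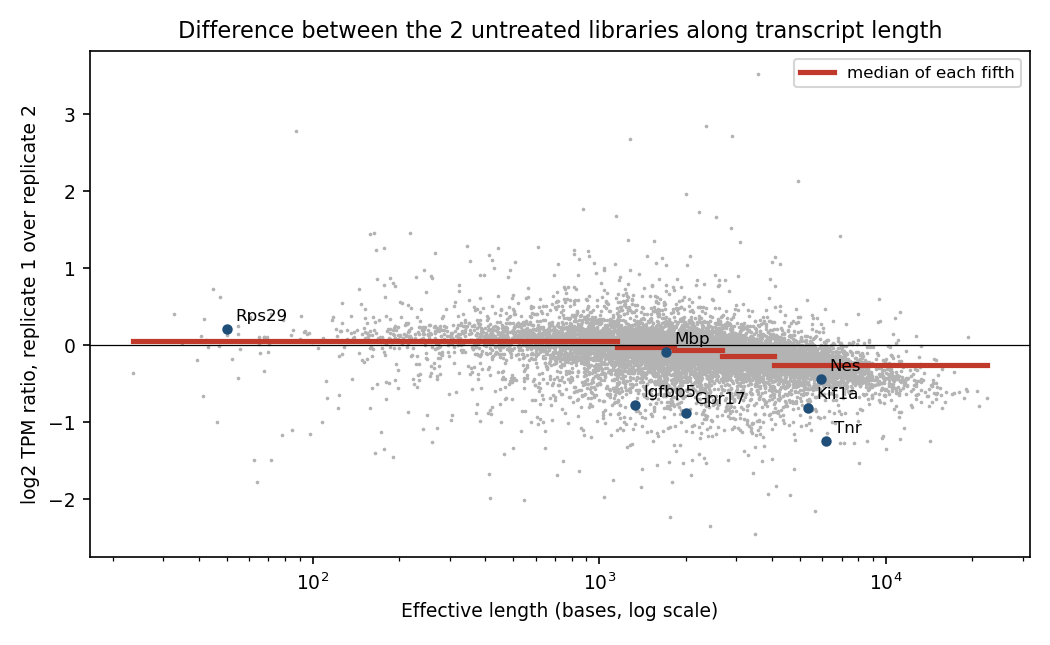
Log2 ratio of TPM, replicate 1 over replicate 2 (vertical), against effective length in bases (horizontal, log scale), 1 grey point per detected gene; red bars are the medians of 5 length groups of equal size, and blue points are named genes. The bars step down from 0.05 in the shortest to -0.26 in the longest group.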

How the data were processed

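Messenger RNA of the 2 untreated libraries was enriched with oligo(dT), fragmented and primed with random hexamers, per the labels' protocols. The series comes with a single table of 18374 genes, in which the authors deposited estimated counts, FPKM and TPM for every library, as its headers name them. FPKM and TPM are the authors' own values, scaled for transcript length and library, so levels of different genes can be set side by side, but a short effective length raises them. Coordinates are on Rnor 6.0, a build named in the submitters' processing notes. How reads were aligned, quantified and assigned to strands is not given in the sources used here. Reads of overlapping, antisense or near-identical genes may therefore be divided between them. The deposited correlations between libraries were left out, because they summarise the series and not single genes.

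Python 3.11.15 with pandas 2.3.3, numpy 2.4.6, scipy 1.17.1 and statsmodels 0.14.6 was used. A gene was called detected at 1 TPM or more in both libraries. Counts within 0.005 of a whole number were called whole. Effective length was taken from the deposited estimated counts and FPKM. No test was made, since 1 group has no contrast. Correlations and medians describe these libraries and were not checked on simulated data. Checked on simulated counts were the effective length, the number of genes at 1 TPM or more and the TPM share of random genes. The members and the 43 gene lists (1151 entries, of which 1125 matched a symbol of the table) were chosen with earlier results of these data known. Named are the 30 most abundant genes with an established symbol, the ribosomal proteins among them as a group, up to 8 highest and 6 lowest members of each list, the 5 markers, members of the families, the 15 highest transcription factors, and up to 10 genes of at least 50 TPM, placeholder symbols left out, that differed most between the libraries. Not all of these are printed. Further list members, the annotated gene classes and the minimum effective length of 200 bases were chosen after seeing the data.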

Additional observations from a re-analysis of the deposited data

How the results depend on the processing

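The count of detected genes, 12933 in the main analysis, stayed within 1.5 times of that value under every alternative run, between 11346 with whole counts only and 13694 at a threshold of 0.5 TPM, and between 13157 and 13202 when 1 library was left out. Of the shares of TPM (means of both libraries), those from detected genes only moved by less than the spread (SD) between the libraries. The same held for FPKM, with the length trend removed, and without replicate 1 or 2, but these settings could hardly have come out otherwise. FPKM as a percent of its sum is the same share as TPM. The length trend was removed by equal and opposite shifts of the 2 libraries, which leaves their mean nearly unchanged. With 2 libraries, leaving 1 out moves a mean by less than the SD. Without division by length, as shares of the estimated counts, the 10 and 100 most abundant genes took 4.99% and 16.6%, and the lists took 1.13% for stem and progenitor, 1.34% for astrocyte, 0.983% for mature oligodendrocyte, 0.495% for young neuron, 0.174% for mature neuron and 0.0105% for microglia genes, so that astrocyte genes then stood above stem and progenitor genes. With whole counts only, the 10 most abundant genes took 9.22%, and the lists in the same order 1.51%, 1.17%, 0.872%, 0.303%, 0.0879% and 0.0162%. With effective lengths of at least 200 bases, a setting added after seeing the data, the 10 and 100 most abundant genes took 9.01% and 27.0%, and the lists 1.401%, 1.08%, 0.81%, 0.451%, 0.0961% and 0.0149%. Both restrictions shrink the total by leaving out genes. Leaving out a library gave 9.35% to 9.90% for the 10 most abundant genes and 1.203% to 1.238% for the stem and progenitor list. No paired analysis was possible because the results come from 1 group and from no test. Depth limits genes near 3 counts, and 2 libraries give no more than a rough spread.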

Other observations

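Genes of the Y chromosome and of the sense of smell were not among the lists. Of the 14 genes that the table places on the Y chromosome, 6 were detected, among them Eif2s3y, a translation factor subunit, at 53.1 and 55.6 TPM and the demethylase Kdm5d at 8.37 and 9.79 TPM (shared reads). Of the 62 genes annotated with olfactory receptor activity 2 (3.23%) were detected. Among annotated chemokine genes 12 of 28 (42.9%) were detected, led by Cxcl14 at 105 and 94.5 TPM. Of the annotated neuropeptide genes 11 of 20 (55.0%) were detected. The shares of these annotated classes are below the 70.4% of all genes.

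At 0 counts in 1 library and at 50 counts or more in the other stood 26 genes, of which 19 have placeholder symbols and 24 have counts that are not whole. Elovl6, named above, is 1 of them. Brms1, at 10.9 and 0 TPM (shared reads), and Dgcr2, at 0 and 15.03 TPM (shared reads), are others. Apoc1, an apolipoprotein gene, is not among the 26 but was also listed at 0 in 1 library, at 28.8 and 0 TPM (shared reads).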
